A study of Mus musculus with 18 samples.

Results

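The gene for cannabinoid receptor 2 (Cnr2) and 9 genes for enzymes and a receptor of the endocannabinoid system were followed in microglia of the mouse medial prefrontal cortex. The other 9 were Mgll, Faah, Dagla, Daglb, Napepld, Abhd6, Abhd12, Gpr55 and Naaa. They were chosen by name, with earlier results of these data known, and all 10 are among the 22428 genes of the deposited expression table. Of these 10 genes, 8 were counted in at least 1 library and 5 in all 18 libraries. The study asked how adolescent exposure to THC, the main psychoactive compound of cannabis, acts on microglia of mice with a duplication of the 16p11 region. The 16p11dup-THC group (n = 4 libraries) carried the 16p11.2 duplication and received daily subcutaneous THC at 8 mg/kg from postnatal day 30 to 51. The 16p11dup-Veh group (n = 4) carried the duplication and received vehicle over the same days. The WT-THC group (n = 4) and the WT-Veh group (n = 6) were wild-type mice given THC at the same dose or vehicle. All mice had the C57BL6/J background, and all cells were sorted at the end of treatment as CD11b+, CD45+ and P2ry12+. No source used here says how many mice gave each library, so the p-values measure the spread between libraries, which may in part be technical.

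Endocannabinoids are lipids made on demand from membrane phospholipids. 2-arachidonoylglycerol (2-AG) is formed from diacylglycerol by the diacylglycerol lipases DAGLα and DAGLβ (Dagla, Daglb) and is broken down by monoacylglycerol lipase (Mgll), ABHD6 and ABHD12. Anandamide and its relatives are released by NAPE-PLD (Napepld) and are hydrolysed by FAAH in most brain cells and by NAAA in lysosomes. These lipids act on G protein-coupled receptors. CB1, encoded by Cnr1, is typical of neurons, CB2 (Cnr2) is typical of immune cells including microglia, and GPR55 responds to lysophosphatidylinositol. THC binds both CB1 and CB2. Cnr1 was not analysed here.

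The recovered counts ranged from 7045444 to 15459286 per library, and between 8778 and 12350 genes were counted per library. All 12 microglial marker genes of a list that includes P2ry12, Tmem119 and Cx3cr1 were counted, with a summed level between 20957 and 41586 CPM (counts scaled to a common library size) in single libraries. Cx3cr1 by itself ranged from 16.0 to 4093 CPM between libraries, against 2314 to 5704 CPM for P2ry12. The summed level did not exceed 104 CPM for 9 neuronal markers, 328 CPM for 8 astrocyte markers, 194 CPM for 7 oligodendrocyte markers and 229 CPM for 6 endothelial markers in any library. It did not exceed 183 CPM for 7 markers of border macrophages, 190 CPM for 7 of monocytes and neutrophils and 47.4 CPM for 7 of B and T cells. The cells of each library were pooled, so fewer cells of a type and less RNA per cell cannot be told apart.

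Per length of transcript, the hydrolase gene Abhd12 was by far the most abundant of the 10 genes. It averaged 195 CPM per kilobase of exon over the 18 libraries, which was rank 110 of 13239 genes with a count and a known exon length. Daglb followed with 26.3, Abhd6 with 25.4 and Dagla with 16.8 CPM per kilobase. Mgll averaged 8.84, Naaa 8.44, Cnr2 6.24 and Napepld 1.01 CPM per kilobase. Single libraries carried much of the low averages: without WT-Veh replicate 2 the mean of Naaa was 3.61, without 16p11dup-THC replicate 4 that of Cnr2 was 3.39 and without WT-Veh replicate 5 that of Napepld was 0.654 CPM per kilobase. The medians were 4.41 for Mgll, 2.48 for Cnr2, 1.82 for Naaa and 0.027 for Napepld, so Cnr2 stood above Naaa by the median and below it by the mean. Abhd12 lay above Daglb, Abhd6 and Mgll in all 18 libraries, whether divided by all exons or by the longest coding transcript. Neighbours in the middle of the order changed places between libraries. Daglb lay above Abhd6 in 9 of 18 libraries by exon length, and in 13 of 18 by the longest coding transcript. By exon length, Abhd6 lay above Dagla in 13 of 18 libraries and Dagla above Mgll in 12 of 18. Naaa lay above Mgll in 9 of 18 and above Cnr2 in 10 of 18 libraries, while Cnr2 lay above Napepld, the last in the order, in 16 of 18. Faah and Gpr55 had no count in any library.

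**Figure D1:**
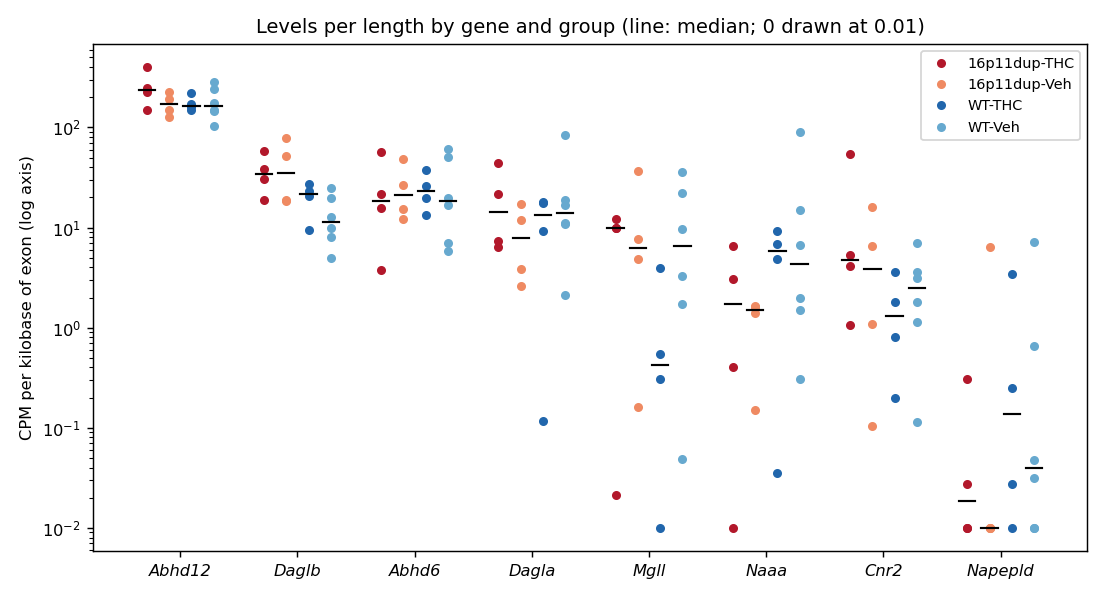
Level of each counted gene in every library, as CPM per kilobase of exon on a log axis, with genes ordered by their mean over 18 libraries and points coloured by group (lines: group medians; a level of 0 is drawn at 0.01). Abhd12 stands above the other genes in all 4 groups, and the points of Mgll, Naaa, Cnr2 and Napepld spread over several orders of magnitude within a group.

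Cnr2 was detected in every library, at low and very uneven levels. In 16p11dup-THC microglia it had 21.1, 4.23, 16.3 and 218 CPM. In 16p11dup-Veh microglia it had 64.3, 26.3, 0.413 and 4.29 CPM. WT-THC microglia had 3.24, 14.4, 0.797 and 7.1 CPM of Cnr2, and the 6 WT-Veh libraries lay between 0.451 and 27.9 CPM with a median of 9.87 CPM. The groups overlapped, and the highest value of all was that of 16p11dup-THC replicate 4, with 2005 counts. The lowest, in 16p11dup-Veh replicate 3, rested on 3 counts. Cnr2 averaged 64.9 ± 102 CPM in 16p11dup-THC, 23.8 ± 29.3 CPM in 16p11dup-Veh and 6.39 ± 5.94 CPM in WT-THC (SD, n = 4 each), against 11.2 ± 9.67 CPM in WT-Veh (SD, n = 6). Without replicate 4 the mean of 16p11dup-THC was 13.9 CPM.

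No comparison of Cnr2 had a limma or exact p under 0.05. The fitted log2 fold change was 1.69 (95% interval -1.40 to 4.77, exact permutation p = 0.26) in 16p11dup-THC against WT-Veh and 2.33 (-1.11 to 5.76, exact p = 0.14) in 16p11dup-THC against WT-THC. It was 1.34 (-2.11 to 4.80, exact permutation p = 0.49) in 16p11dup-THC against 16p11dup-Veh, 0.34 (-2.73 to 3.42, exact p = 0.90) in 16p11dup-Veh against WT-Veh and -0.64 (-3.71 to 2.43, exact p = 0.58) in WT-THC against WT-Veh. DESeq2 gave 2.69 in 16p11dup-THC against WT-THC, with an unadjusted p of 0.039, which 13.3% of all genes passed by that tool, and an adjusted p of 0.32. The direction in 16p11dup-Veh against WT-Veh turned to -0.35 without WT-Veh replicate 4, to -0.53 without 16p11dup-Veh replicate 1 and to -0.33 without 16p11dup-Veh replicate 2, and that in WT-THC against WT-Veh turned to 0.45 without WT-THC replicate 3. The intervals include differences of several-fold either way. The standard deviation of Cnr2 over the 18 libraries was 2.29 on the log2 scale, and 14.3% of the 1094 genes with a mean within 0.5 of that of Cnr2 had a smaller one.

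Cnr2 is annotated on the plus strand of chromosome 4, from 135895394 to 135920207 (GRCm38), with 3 exon blocks. RefSeq lists 2 starts for it on GRCm38.p6, and the sequences around both are shown because this receptor gene is the centre of the set. They run from 250 bases before to 50 bases after each start, and capitals would mark a PU.1 core GAGGAAGT, a GC box GGGCGG or a TATA box TATAAA on either strand. The RefSeq starts differ from the annotated gene start given above, and the first sequence ends upstream of it. PU.1 is a transcription factor of the microglial lineage. Neither Cnr2 sequence held any of these letters, and each held 3 CpG dinucleotides, against a median of 7 in 32851 RefSeq promoters of the same length.
Cnr2, first start, chr4:135894939-135895238, plus strand: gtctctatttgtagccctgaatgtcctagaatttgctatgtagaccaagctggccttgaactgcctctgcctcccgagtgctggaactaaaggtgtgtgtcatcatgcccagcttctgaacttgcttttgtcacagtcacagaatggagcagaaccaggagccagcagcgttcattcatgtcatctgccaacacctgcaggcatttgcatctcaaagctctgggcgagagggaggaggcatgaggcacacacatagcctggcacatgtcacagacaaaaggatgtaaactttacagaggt
Cnr2, second start, chr4:135911430-135911729, plus strand: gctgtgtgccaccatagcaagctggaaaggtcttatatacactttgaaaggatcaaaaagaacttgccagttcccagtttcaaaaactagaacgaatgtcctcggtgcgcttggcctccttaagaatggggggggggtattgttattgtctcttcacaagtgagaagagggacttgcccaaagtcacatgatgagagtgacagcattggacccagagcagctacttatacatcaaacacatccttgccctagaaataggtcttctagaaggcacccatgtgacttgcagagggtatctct

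Gpr55 was at a count of 0 in all 18 libraries of the 4 groups. A count of 0 allows up to 3 counts per library, equal to 0.155 to 0.424 CPM, a limit that covers counting error only. The gene lies on the minus strand of chromosome 1, from 85938318 to 85961007, and shares 71 exonic bases with 4933407L21Rik on the other strand. Its promoter is printed for contrast with that of Cnr2, since it was the only one of the 11 matched promoters with a PU.1 core. The core stands in capitals as its reverse complement, and 3.2% of all promoters hold one on either strand. The match is a description of the sequence and not evidence of binding. This sequence, too, is set by a RefSeq start and lies almost wholly upstream of the annotated gene.
Gpr55, chr1:85961006-85961305, minus strand: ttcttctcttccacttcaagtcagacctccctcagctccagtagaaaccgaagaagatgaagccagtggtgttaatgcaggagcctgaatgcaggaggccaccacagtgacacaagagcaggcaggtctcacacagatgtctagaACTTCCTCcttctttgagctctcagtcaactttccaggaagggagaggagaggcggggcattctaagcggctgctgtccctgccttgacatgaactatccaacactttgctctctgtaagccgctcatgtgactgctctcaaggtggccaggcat

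Daglb, the gene for DAGLβ, was the only one of the 8 counted genes with an unadjusted limma p under 0.05, in 16p11dup-THC against WT-Veh, where 5.63% of all genes with a count passed, and in 16p11dup-Veh against WT-Veh, where 3.51% did. It had 181, 367, 550 and 293 CPM in 16p11dup-THC microglia and 491, 176, 755 and 181 CPM in 16p11dup-Veh microglia. It had 222, 90.7, 258 and 195 CPM in WT-THC microglia, and the 6 WT-Veh libraries lay between 47.3 and 236 CPM with a median of 108 CPM. The groups overlapped: 3 libraries of 16p11dup-THC and 2 of 16p11dup-Veh lay above all WT libraries, and 1 of 16p11dup-THC and 2 of 16p11dup-Veh lay below the highest WT-Veh library. The mean of Daglb was 348 ± 155 CPM in 16p11dup-THC, 401 ± 279 CPM in 16p11dup-Veh and 192 ± 72 CPM in WT-THC (SD, n = 4 each), against 128 ± 71.5 CPM in WT-Veh (SD, n = 6).

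In 16p11dup-THC against WT-Veh the log2 fold change of Daglb was 1.55 ± 0.52 (SE, 95% interval 0.45 to 2.65), with an unadjusted limma p of 0.0089 and an adjusted p of 0.81. In 16p11dup-Veh against WT-Veh it was 1.22 ± 0.51 (SE, 0.14 to 2.30), with an unadjusted limma p of 0.030 and an adjusted p of 0.98. Neither passed the false discovery rate (FDR) of 0.10 over all genes. Both comparisons use the same WT-Veh libraries. An exact two-sided permutation test of the mean log2 CPM gave p = 0.024 for the first and p = 0.043 for the second, where 210 arrangements allow a smallest p of 0.0048. These were the only 2 of 40 exact tests over the 8 counted genes and 5 comparisons with a p under 0.05. The 40 tests share libraries and are not independent, and the exact test was not run on all genes. This count therefore has no share of all genes to be read against. The unadjusted limma p stayed under 0.05 without any 1 library in 16p11dup-THC against WT-Veh, while the exact p reached 0.071 and was under 0.05 without 7 of the 10 libraries in turn. In 16p11dup-Veh against WT-Veh the exact p reached 0.11 and was under 0.05 without 4 of the 10 libraries in turn. The unadjusted limma p of 16p11dup-Veh against WT-Veh was 0.059 without WT-Veh replicate 2, 0.061 without WT-Veh replicate 3, 0.0840 without 16p11dup-Veh replicate 1 and 0.097 without 16p11dup-Veh replicate 3. With the 5 deposited surrogate variables in the model, the log2 fold changes were 0.87 in 16p11dup-THC against WT-Veh and 0.60 in 16p11dup-Veh against WT-Veh, with an unadjusted limma p of 0.12 and of 0.29. Without these variables, edgeR gave 1.44 (unadjusted p = 0.011, adjusted 0.71) and 1.66 (unadjusted p = 0.0043, adjusted 0.71) in the same order. DESeq2 gave 1.40 (unadjusted p = 0.017, adjusted 0.17) and 1.66 (unadjusted p = 0.0052, adjusted 0.14). The shares of all genes with an unadjusted p under 0.05 were 8.84% and 7.52% by edgeR, and 14.7% and 9.1% by DESeq2.

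The other comparisons of 2 groups gave no limma or exact p under 0.05 for Daglb. The log2 fold change was 0.58 (95% interval -0.51 to 1.67, exact permutation p = 0.23) in WT-THC against WT-Veh and 0.97 (-0.25 to 2.20, exact p = 0.14) in 16p11dup-THC against WT-THC. It was 0.33 (-0.88 to 1.55, exact permutation p = 1) in 16p11dup-THC against 16p11dup-Veh, with a sign that turned to -0.01 without 16p11dup-Veh replicate 2. The interaction of THC and 16p11dup was -0.24 (-1.90 to 1.41, limma adjusted p = 0.97). A moderated F test of any difference among the 4 groups gave an unadjusted p of 0.035 and an adjusted p of 0.94 for Daglb. That F test p was above 0.05 in 8 of the 18 fits that left out 1 library, namely those without WT-Veh replicates 1, 2, 3 or 4, 16p11dup-Veh replicate 1, or 16p11dup-THC replicates 2, 3 or 4.

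Daglb lies on the plus strand of chromosome 5, from 143464584 to 143505942, in 14 exon blocks. It shares 2309 exonic bases, 24.1% of all its annotated exons, with Rac1, a small GTPase gene on the other strand. All 2309 lie in coding transcripts of both genes, and the 1 coding transcript of Daglb is 4651 bases long. The reads were counted without strand. Reads of the 2 genes in that stretch cannot be told apart, although the recovered Daglb counts were whole numbers in all libraries. Rac1 itself averaged 1056 ± 563 CPM in 16p11dup-THC and 749 ± 426 CPM in 16p11dup-Veh (SD, n = 4 each), against 865 ± 135 CPM in WT-Veh (SD, n = 6). Its log2 fold change was 0.30 (adjusted p = 0.81) in 16p11dup-THC against WT-Veh and -0.39 (adjusted p = 0.98) in 16p11dup-Veh against WT-Veh. In 16p11dup-THC against WT-Veh, 5.63% of all genes with a count had a limma p under 0.05, and 2.69% did and were higher. These shares apply to each marker list of this comparison. Of the 12 microglial markers, 4 had a limma p under 0.05 there, all higher. Among them was the uneven Cx3cr1, at 3439 ± 575 CPM in 16p11dup-THC (SD, n = 4) and 1808 ± 1962 CPM in WT-Veh (SD, n = 6). The summed list had 25900 to 41586 CPM in 16p11dup-THC, against 20957 to 40238 CPM in WT-Veh. None of the 12 (23602 to 34874 CPM summed in 16p11dup-Veh) had a limma p under 0.05 in 16p11dup-Veh against WT-Veh, where 3.51% of all genes did. The median log2 fold change of the 12 microglial markers was 0.31 in 16p11dup-THC against WT-Veh and 0.005 in 16p11dup-Veh against WT-Veh. In 16p11dup-THC against WT-Veh, 1 of 8 astrocyte markers had a limma p under 0.05 (Clu, mean 12.999 CPM in 16p11dup-THC, against 0.784 CPM in WT-Veh), while the median log2 fold change of the 8 was 0.01 and their summed level lay between 58.4 and 328 CPM in 16p11dup-THC, against 108 to 287 CPM in WT-Veh. Of 7 oligodendrocyte markers 1 did (Mag, 25.05 CPM in 16p11dup-THC, against 2.72 CPM in WT-Veh), with a median of -0.53 over the 7 and summed levels of 6.44 to 120 CPM in 16p11dup-THC, against 11.7 to 194 CPM in WT-Veh. Of 7 border macrophage markers 1 did (Lyve1, 3.31 CPM in 16p11dup-THC, against 0 CPM in WT-Veh), with a median of 1.10 over the 7 and summed levels of 3.95 to 87.8 CPM in 16p11dup-THC, against 0.123 to 43.5 CPM in WT-Veh. None of the neuronal markers had a limma p under 0.05 there. The part of these markers in the Daglb values was not tested.

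The Daglb promoter is shown because Daglb alone among the 8 genes had limma and exact p-values under 0.05 with all libraries included. It held 11 CpG dinucleotides and none of the 3 motifs. Its place is set by a RefSeq start, and it ends upstream of the annotated gene start at 143464584.
Daglb, chr5:143464243-143464542, plus strand: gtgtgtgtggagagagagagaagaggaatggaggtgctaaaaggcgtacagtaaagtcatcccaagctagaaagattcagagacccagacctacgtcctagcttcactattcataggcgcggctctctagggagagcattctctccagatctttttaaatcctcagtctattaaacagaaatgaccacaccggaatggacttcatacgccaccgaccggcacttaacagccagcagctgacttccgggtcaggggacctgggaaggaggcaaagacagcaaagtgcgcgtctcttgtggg

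**Figure D2:**
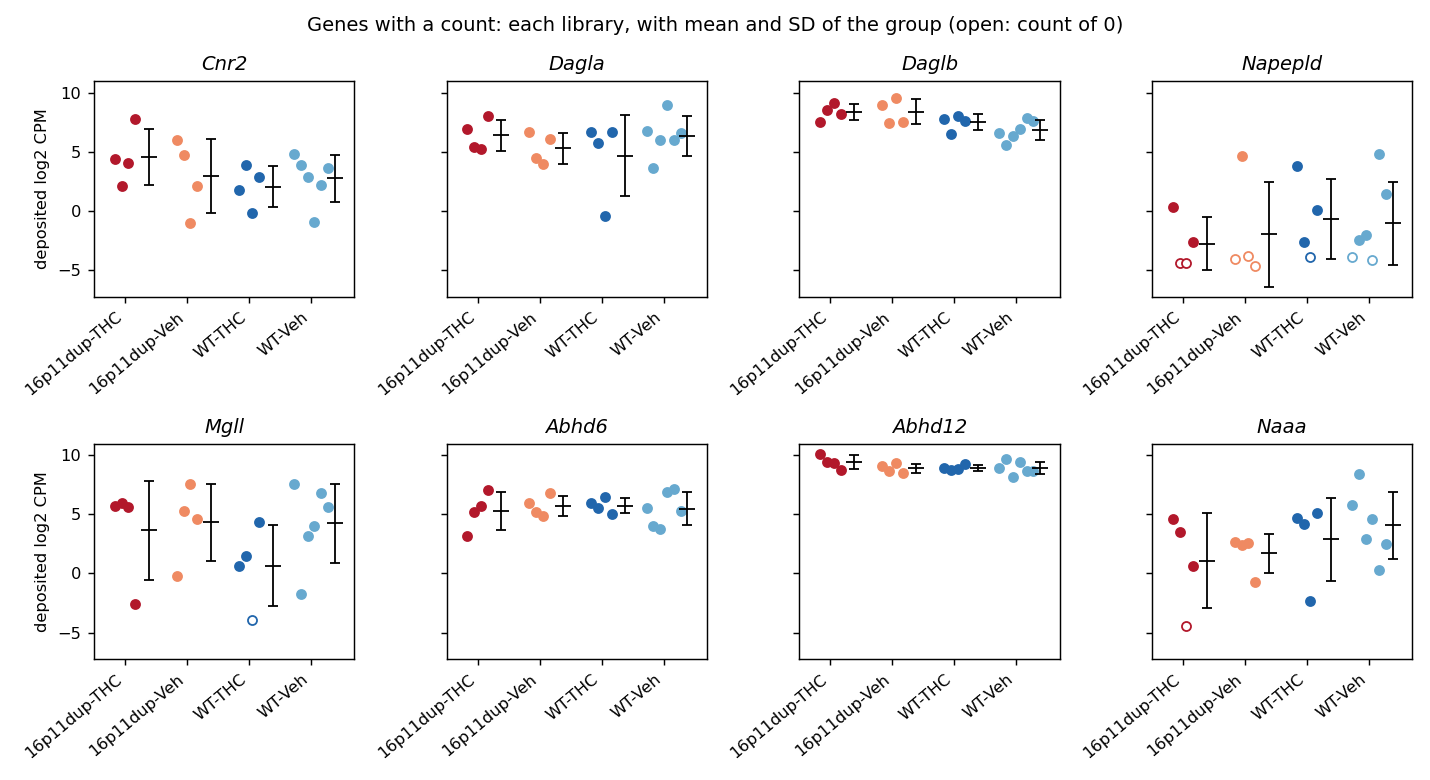
Deposited log2 CPM of the 8 counted genes in each of the 18 libraries, by group from left to right 16p11dup-THC, 16p11dup-Veh, WT-THC and WT-Veh, with the mean and SD of the group beside the points (open points: a count of 0). Abhd12 has the smallest spread, while Mgll, Naaa and Napepld hold libraries at or near a count of 0 beside libraries of the same group with far higher values.

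Dagla, which encodes the other diacylglycerol lipase, had 123, 42.0, 36.5 and 252 CPM in 16p11dup-THC and 99.1, 21.9, 15.0 and 67.9 CPM in 16p11dup-Veh. It had 100, 53.5, 0.664 and 104 CPM in WT-THC and between 12.1 and 479 CPM in WT-Veh, where the median was 80.9 CPM. The 4 groups overlapped. The low value of WT-THC replicate 3 rested on 5 counts, and the high value was that of WT-Veh replicate 4. The largest limma contrast of Dagla was the interaction of THC and 16p11dup, with a log2 value of 2.98 (95% interval -0.73 to 6.70, adjusted p = 0.97). DESeq2 gave 3.11 for it, with an unadjusted p of 0.039 (12.6% of all genes passed by that tool) and an adjusted p of 0.32. It was 0.94 by limma without WT-THC replicate 3, and 4.07 without 16p11dup-THC replicate 2, where the unadjusted limma p was under 0.05 (adjusted p = 0.97). Per kilobase of exon, Daglb made up 65.5 ± 25.1% of the sum of both lipases in 16p11dup-THC, 79.0 ± 14.8% in 16p11dup-Veh and 65.0 ± 23.2% in WT-THC (SD, n = 4 each), against 47.2 ± 21.8% in WT-Veh (SD, n = 6). The single shares ranged from 13.3% in WT-Veh replicate 4 to 99.6% in WT-THC replicate 3. Daglb exceeded Dagla per kilobase in 13 of 18 libraries by exon length and in 17 of 18 by the longest coding transcript.

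Napepld, the gene for the anandamide-forming phospholipase NAPE-PLD, was counted in 10 of 18 libraries. It was counted in 2 of 4 libraries of 16p11dup-THC (1.2 and 0.109 CPM), in 1 of 4 of 16p11dup-Veh (25.04 CPM), in 3 of 4 of WT-THC (0.107 to 13.6 CPM) and in 4 of 6 of WT-Veh (0.123 to 28.3 CPM). Only 4 libraries held 50 counts or more, and each group had libraries at 0. Its fitted fold changes rest on the 0.5 counts added before the log and are not bounds.

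Abhd12, an integral membrane hydrolase of 2-AG and of lysophosphatidylserine, had the smallest spread of the 8 counted genes. It had 1132, 692, 642 and 422 CPM in 16p11dup-THC, 549, 418, 631 and 361 CPM in 16p11dup-Veh, and 481, 420, 451 and 618 CPM in WT-THC. The 6 WT-Veh libraries lay between 292 and 800 CPM with a median of 458 CPM. One 16p11dup-THC library, replicate 1, was above all others, and the groups overlapped. The mean was 722 ± 298 CPM in 16p11dup-THC, 490 ± 123 CPM in 16p11dup-Veh and 492 ± 87.4 CPM in WT-THC (SD, n = 4 each), against 516 ± 189 CPM in WT-Veh (SD, n = 6). The log2 fold change was 0.51 (95% interval -0.09 to 1.12, exact permutation p = 0.24) in 16p11dup-THC against WT-Veh and 0.56 (-0.11 to 1.22, exact p = 0.14) in 16p11dup-THC against 16p11dup-Veh. Both missed the threshold. Without 16p11dup-THC replicate 4 they were 0.70 (adjusted p = 0.94) and 0.74 (adjusted p = 0.93), and without WT-Veh replicate 2 the first was 0.64 (adjusted p = 0.88). These 3 values had an unadjusted limma p under 0.05. In WT-THC against WT-Veh the log2 fold change was 0.12 (-0.48 to 0.71, exact permutation p = 1).

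Abhd6, which hydrolyses 2-AG at the inner face of the membrane, averaged 57.5 ± 53.5 CPM in 16p11dup-THC, 60.5 ± 38.1 CPM in 16p11dup-Veh and 57.4 ± 24.5 CPM in WT-THC (SD, n = 4 each), against 63.2 ± 54.8 CPM in WT-Veh (SD, n = 6). Single libraries ranged from 8.96 CPM in 16p11dup-THC replicate 1 to 143 CPM in WT-Veh replicate 5. The 4 group means differed by less than the SD of any group. The limma p was between 0.40 and 0.78 in the 5 comparisons.

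Mgll, the gene for monoacylglycerol lipase, the main 2-AG hydrolase of the whole brain, varied most. It had 50.7, 61.7, 49.7 and 0.109 CPM in 16p11dup-THC and 0.811, 39.3, 185 and 24.8 CPM in 16p11dup-Veh. It had 1.55, 2.79, 0 and 20.04 CPM in WT-THC, and WT-Veh lay between 0.246 and 184 CPM with a median of 33.0 CPM. All 4 WT-THC libraries were below that median, and the groups overlapped. The mean was 6.09 ± 9.36 CPM in WT-THC (SD, n = 4) and 61.9 ± 72.5 CPM in WT-Veh (SD, n = 6). The log2 fold change, with 0.5 counts added, was -3.56 (95% interval -8.06 to 0.95), and the exact permutation test gave p = 0.15. Without WT-Veh replicate 2 it was -4.49, with an unadjusted limma p under 0.05 (adjusted p = 0.82). With all libraries it was -3.17 by edgeR, with an unadjusted p of 0.043 (7.53% of all genes passed), and -3.15 by DESeq2, with an unadjusted p of 0.027 (11.1% of all genes), and neither passed after adjustment (adjusted p of 1 by edgeR and 0.31 by DESeq2). The SD of Mgll over all libraries, 3.54 on the log2 scale, was larger than that of 96.6% of the 1167 genes with a like mean.

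Together, the 3 hydrolase genes of 2-AG kept 1 order of abundance in most libraries. Per kilobase of exon, Abhd12 made up 86.8 ± 10.2% of their sum in 16p11dup-THC, 81.8 ± 7.73% in 16p11dup-Veh and 87.0 ± 4.85% in WT-THC (SD, n = 4 each), against 82.8 ± 12.2% in WT-Veh (SD, n = 6). Over all 18 libraries the mean shares were 84.4% for Abhd12, 11.9% for Abhd6 and 3.72% for Mgll. Abhd6 exceeded Mgll in 15 of 18 libraries.

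**Figure D3:**
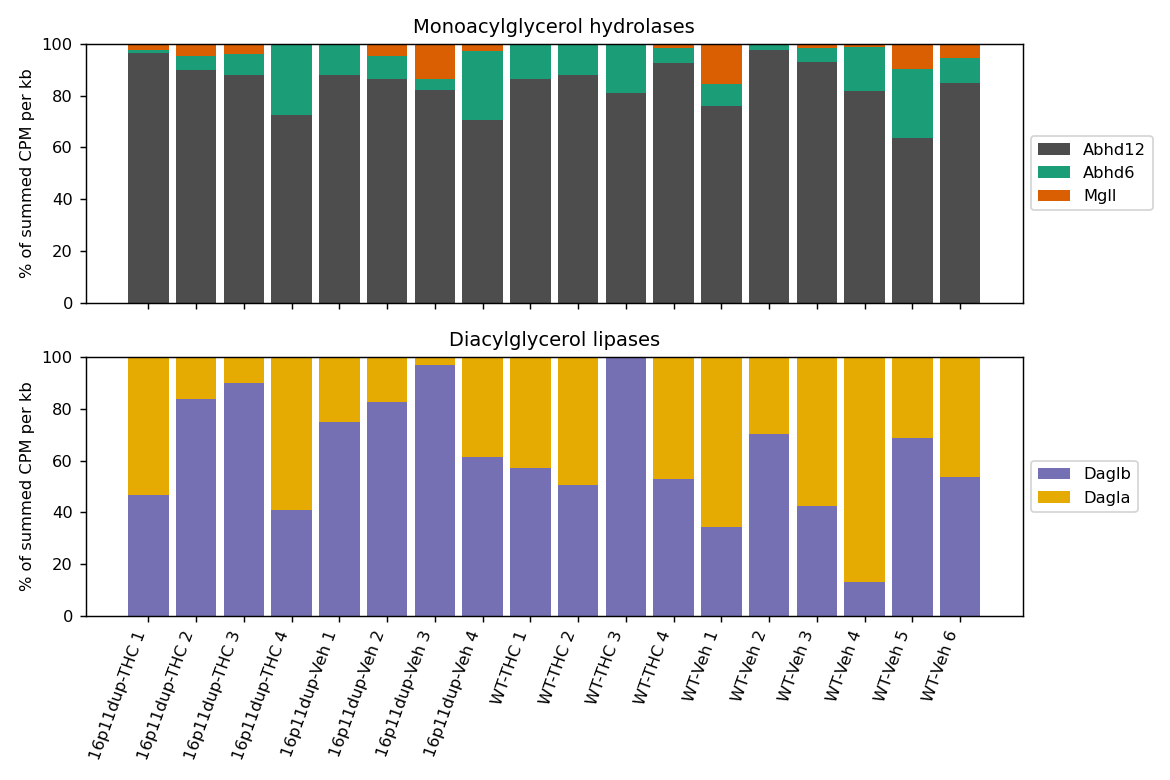
Shares of the 3 monoacylglycerol hydrolases (upper bars) and of both diacylglycerol lipases (lower bars) in each library, as a percentage of their summed CPM per kilobase of exon. Abhd12 takes between 63.8% and 97.6% of the hydrolase sum, while the share of Daglb ranges from 13.3% to 99.6%.

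Faah, the gene for the main anandamide hydrolase of the brain, was at a count of 0 in every library, with the same limit of 0.155 to 0.424 CPM. Naaa, whose product hydrolyses palmitoylethanolamide in lysosomes, had 24.5, 11.3, 0 and 1.52 CPM in 16p11dup-THC and 6.14, 5.24, 5.92 and 0.556 CPM in 16p11dup-Veh. It had 25.5, 18.2, 0.133 and 34.2 CPM in WT-THC and between 1.13 and 337 CPM in WT-Veh, where the median was 16.1 CPM. The groups overlapped, and WT-Veh replicate 2 held the highest value with 2737 counts. The log2 fold change in 16p11dup-Veh against WT-Veh was -2.76 (95% interval -6.55 to 1.03, exact permutation p = 0.18), and the mean of WT-Veh was 72.0 CPM with and 19.004 CPM without that library. The value depended on the fit. It was -1.001 by limma with the surrogate variables, -4.64 by edgeR (adjusted p = 0.87) and -4.63 by DESeq2 (adjusted p = 0.035), so DESeq2 called Naaa at the false discovery rate of 0.10, as it did 3.25% of all genes in this comparison.

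Over the set, none of the 8 counted genes passed the FDR of 0.10 by limma in any comparison, and very few of all genes did. By edgeR none of the 8 passed either, where it called 0.107% of the genes with a count in 16p11dup-Veh against WT-Veh, 0.0573% in 16p11dup-THC against WT-Veh, 0.115% in 16p11dup-THC against 16p11dup-Veh, 0.043% in the interaction, 0.867% in the F test and 0% in the remaining 2. By DESeq2, which called between 454 and 1041 of 13963 genes in the comparisons of 2 groups and 0.587% in the test of any difference, 1 passed, Naaa in 16p11dup-Veh against WT-Veh. By limma, in WT-THC against WT-Veh 0.00892% of the 22428 genes passed it, in 16p11dup-Veh against WT-Veh and in the interaction 0%, and in each of the other 3 comparisons and the F test 0.00446%. At an unadjusted limma p under 0.05, 0 of 8 genes passed in WT-THC against WT-Veh, where 3.93% of the 13964 genes with a count did. In 16p11dup-Veh against WT-Veh 1 of 8 passed, against 3.51% of all genes and 2.18% that were higher. In 16p11dup-THC against WT-Veh 1 of 8 passed, against 5.63% of all genes and 2.69% that were higher. None of 8 passed in 16p11dup-THC against WT-THC (5.74% of all genes), in 16p11dup-THC against 16p11dup-Veh (5.12%) or in the interaction (4.55%), and 1 of 8 passed the F test (4.55%). The limma call was Daglb each time. At the same looser rule edgeR called 1 of 8 in WT-THC against WT-Veh (7.53% of all genes), 2 in 16p11dup-Veh against WT-Veh (7.52%), 1 in 16p11dup-THC against WT-Veh (8.84%), 2 in the F test (12.6%) and none in 16p11dup-THC against WT-THC (7.91%), in 16p11dup-THC against 16p11dup-Veh (7.81%) or in the interaction (7.86%). DESeq2 called 1 of 8 in WT-THC against WT-Veh (11.1% of all genes), 2 in 16p11dup-Veh against WT-Veh (9.1%), 2 in 16p11dup-THC against WT-Veh (14.7%), 1 in 16p11dup-THC against WT-THC (13.3%), none in 16p11dup-THC against 16p11dup-Veh (12.1%), 2 in the interaction (12.6%) and 2 in the test of any difference (7.68%).

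The lowest adjusted limma p of the 8 genes was 0.75 in WT-THC against WT-Veh, 0.98 in 16p11dup-Veh against WT-Veh and 0.81 in 16p11dup-THC against WT-Veh. It was 0.97 in 16p11dup-THC against WT-THC, 0.84 in 16p11dup-THC against 16p11dup-Veh, 0.97 in the interaction and 0.94 in the F test. None of the 8 genes had libraries of 2 groups that did not overlap. Such separation was seen in 0.486% of genes in WT-THC against WT-Veh, 0.504% in 16p11dup-Veh against WT-Veh, 0.645% in 16p11dup-THC against WT-Veh, 2.29% in 16p11dup-THC against WT-THC and 2.26% in 16p11dup-THC against 16p11dup-Veh. The median log2 fold change of the 8 genes was 0.03 in 16p11dup-THC against WT-Veh, -0.13 in 16p11dup-Veh against WT-Veh and -0.38 in WT-THC against WT-Veh. Over all genes with a count it was -0.10, 0.03 and -0.11 in the same 3 comparisons.

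**Figure D4:**
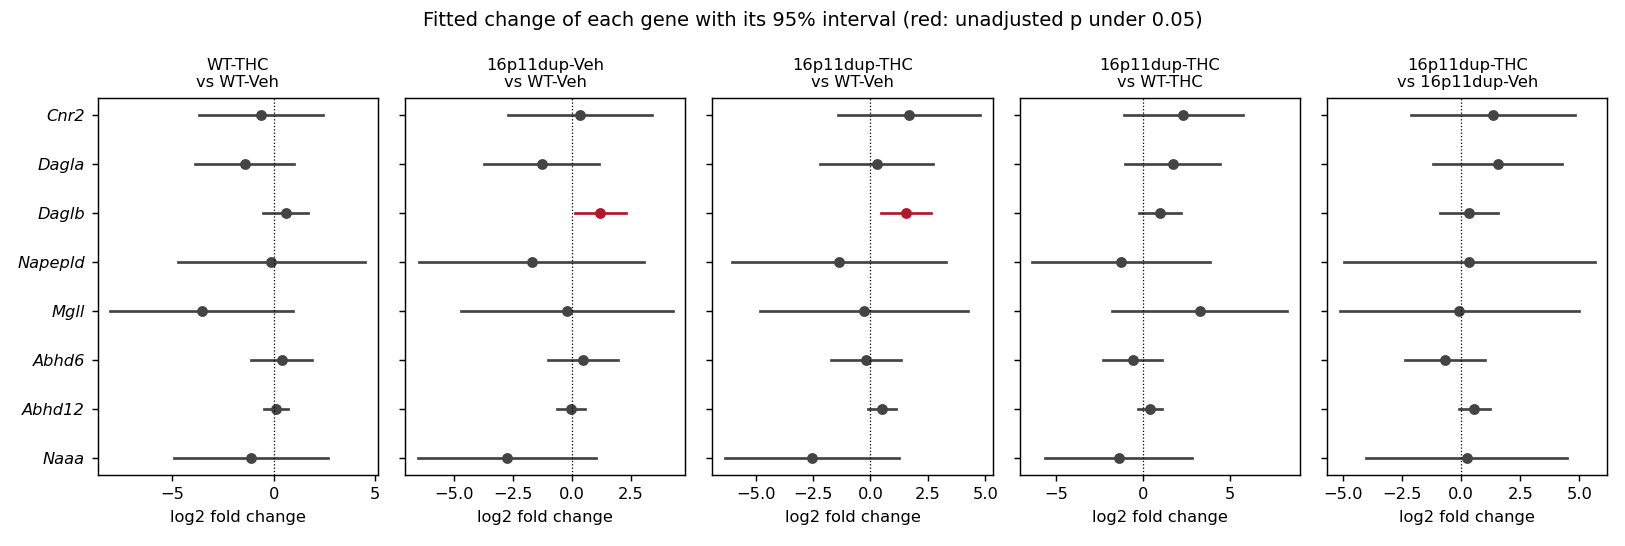
Fitted log2 fold change of the 8 counted genes in 5 comparisons, with points for the estimate and lines for the 95% interval (red: unadjusted limma p under 0.05). Only Daglb in 16p11dup-Veh against WT-Veh (1.22) and in 16p11dup-THC against WT-Veh (1.55) has an interval above 0. The intervals of Mgll, Napepld, Naaa, Cnr2 and Dagla are several log2 units wide.

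The highest Pearson correlation of log2 CPM between any 2 of the 8 genes was 0.35, between Abhd12 and Naaa. As a description over the 18 libraries, which share depth and treatment groups, the Pearson correlation of log2 CPM was -0.59 between Daglb and Naaa, -0.48 between Abhd6 and Naaa and -0.42 between Abhd6 and Abhd12. It was 0.33 between Cnr2 and Dagla, -0.10 between Cnr2 and Daglb and -0.10 between the 2 lipases Dagla and Daglb. Among 3302 genes counted in all libraries whose mean log2 CPM was 5 or more, those most like Cnr2 were Ppid (r = 0.70), Lrrcc1 (0.70) and Fyco1 (0.70). Those most like Daglb were Med1 (0.85), Rhobtb1 (0.80) and Cdan1 (0.77), and among those most like Dagla were 1810011H11Rik (0.83) and Dstn (0.81). Abhd6 was closest to Exoc2 (0.78), Ptplad1 (0.77) and Eif4g1 (0.75), and Abhd12 to Cpeb4 (0.76), Hspd1 (0.70) and Nfam1 (0.68). These are the highest of many correlations over 18 libraries.

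Other genes around the pathway were taken from lists chosen by function, with earlier results of these data known. Of 8 other receptors and receptor partners in the table, 5 had a count and none had a limma p under 0.05 in any of the 5 comparisons. Ppard, a nuclear receptor for fatty acids, averaged 11.7, Gpr18, a proposed receptor for N-arachidonoyl glycine, 11.3 and the cation channel gene Trpv2 10.7 CPM per kilobase. One library, 16p11dup-THC replicate 3, set the first places: without it Ppard averaged 5.46 and Gpr18 5.60 CPM per kilobase, below Trpv2, which averaged 9.11 without its own highest library. Trpv1, Gpr119 and Pparg had no count. Of 9 receptors for lysophospholipids 5 had a count, led by Gpr34, a microglial receptor for lysophosphatidylserine, with 341 CPM per kilobase, and by Lpar6 with 61.7 CPM per kilobase. S1pr1, a sphingosine 1-phosphate receptor, was the only one with a limma p under 0.05, in WT-THC against WT-Veh (3.93% of all genes), with 6.7 ± 6.88 CPM in WT-THC (SD, n = 4) and 30.8 ± 27.6 CPM in WT-Veh (SD, n = 6), and a log2 fold change of -3.26 (adjusted p = 0.75).

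Among 11 other genes of endocannabinoid synthesis, 8 had a count and Inpp5d, a lipid phosphatase abundant in microglia, led with 95.5 CPM per kilobase, ahead of Gdpd3 with 27.0. The paper places Gdpd3 in the duplicated 16p11 region, so its mean pools libraries of different copy number. None passed the FDR by limma. At an unadjusted limma p under 0.05, 2 of 8 passed in WT-THC against WT-Veh (1 higher, 1 lower), where 3.93% of all genes with a count did. One of 8 passed in 16p11dup-THC against WT-Veh (higher; 5.63% of all genes), 2 in 16p11dup-THC against WT-THC (1 higher, 1 lower; 5.74%), 1 in 16p11dup-THC against 16p11dup-Veh (higher; 5.12%) and none in 16p11dup-Veh against WT-Veh (3.51%). Gde1, a glycerophosphodiesterase of the anandamide route, averaged 84.6 ± 52.2 CPM in WT-THC (SD, n = 4) and 15.7 ± 18.7 CPM in WT-Veh (SD, n = 6), with a log2 fold change of 3.18 (adjusted p = 0.75), and 13.97 ± 13.6 CPM in 16p11dup-THC (SD, n = 4), with -4.89 against WT-THC (adjusted p = 0.97). Its interaction term was -6.25 (adjusted p = 0.97). Abhd4, a hydrolase of the same route, averaged 10.2 ± 9.82 CPM in WT-THC (SD, n = 4) and 76.4 ± 116 CPM in WT-Veh (SD, n = 6), with a log2 fold change of -2.70 (adjusted p = 0.75). Ddhd1, a phospholipase, averaged 70.3 ± 54.3 CPM in 16p11dup-THC, 22.3 ± 16.7 CPM in 16p11dup-Veh and 38.003 ± 59.5 CPM in WT-THC (SD, n = 4 each), against 35.9 ± 46.7 CPM in WT-Veh (SD, n = 6). Its log2 fold change in 16p11dup-THC was 3.04 against WT-Veh (adjusted p = 0.81), 3.24 against WT-THC (adjusted p = 0.97) and 3.04 against 16p11dup-Veh (adjusted p = 0.84).

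Of 11 other genes of endocannabinoid breakdown and transport 9 had a count, and Pnpla2, a triglyceride lipase, was the most abundant with 58.2 CPM per kilobase, followed by Lipe with 8.44. Abhd16a, a phosphatidylserine lipase, was the only one with a limma p under 0.05, in 16p11dup-THC against WT-THC (5.74% of all genes), at 1.97 ± 2.64 CPM in the 16p11dup-THC libraries, against 36.6 ± 43.5 CPM in the WT-THC libraries (SD, n = 4 each). The cyclooxygenase gene Ptgs2 had a count in 1 library. Ptgs1, which encodes the other cyclooxygenase, averaged 296 CPM per kilobase and led the 14 counted genes of arachidonic acid and eicosanoid metabolism, with Hpgd, the prostaglandin-degrading dehydrogenase, next at 199. In that list of 14 counted genes, to be read against the same shares of all genes, 1 gene was lower in WT-THC against WT-Veh at a limma p under 0.05 (Alox5ap, 127 ± 60.4 CPM in 4 WT-THC libraries and 287 ± 160 CPM in 6 WT-Veh libraries). One was higher in 16p11dup-Veh against WT-Veh (Cbr1, 37.1 ± 31.2 CPM in 4 16p11dup-Veh libraries and 11.6 ± 17.99 CPM in 6 WT-Veh libraries), 2 were lower in 16p11dup-THC against WT-THC (Lta4h and Ptges3), 1 was lower in 16p11dup-THC against 16p11dup-Veh (Ptges3, 31.3 ± 11.3 CPM in 4 16p11dup-THC libraries and 81.0 ± 46.7 CPM in 4 16p11dup-Veh libraries) and none differed at that level in 16p11dup-THC against WT-Veh.

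Phospholipase C enzymes release the diacylglycerol that the lipases use. Of 13 such genes 12 had a count, with Plcl2 (39.6 CPM per kilobase, a relative without known catalytic activity), Plcg2 (37.3) and Plcb2 (32.4) the most abundant. Without 16p11dup-Veh replicate 3, its highest library, Plcl2 averaged 28.3 CPM per kilobase, below the other 2. In the comparisons of 2 groups only Plcb4 had a limma p under 0.05, in 16p11dup-THC against 16p11dup-Veh (5.12% of all genes) and against WT-THC (5.74%). It had 3.09 ± 3.39 CPM in 16p11dup-THC, 0.232 ± 0.463 CPM in 16p11dup-Veh and 0.352 ± 0.703 CPM in WT-THC (SD, n = 4 each), with counts in 3, 1 and 1 of the 4 libraries. All 14 other genes with an abhydrolase domain had a count, none of them near the level of Abhd12: Abhd15 averaged 33.1 and Abhd13 17.3 CPM per kilobase (11.1 without 16p11dup-Veh replicate 3). At a limma p under 0.05, Abhd17a was lower in WT-THC against WT-Veh (3.93% of all genes passed). Abhd2 was lower and Abhd3 higher in 16p11dup-THC against WT-Veh (5.63%), and Abhd13 was higher in 16p11dup-THC against WT-THC (5.74%). Abhd17c was lower and Abhd3 higher in 16p11dup-THC against 16p11dup-Veh (5.12%). Abhd2 had 2.16 ± 2.89 CPM in 16p11dup-THC (SD, n = 4) and 40.7 ± 35.2 CPM in WT-Veh (SD, n = 6), the smallest p of these (0.0050, adjusted 0.81). Abhd3 was counted in 3 of 4 libraries of 16p11dup-THC, 1 of 6 of WT-Veh and 1 of 4 of 16p11dup-Veh. Its fold changes therefore rest on the 0.5 counts added before the log. No gene of the 7 lists passed the FDR of 0.10 by limma or edgeR in any comparison. By DESeq2, of 67 counted list genes, 5 passed in WT-THC against WT-Veh (4.42% of all genes), 1 in 16p11dup-Veh against WT-Veh (3.25%), 7 in 16p11dup-THC against WT-Veh (7.46%), 8 in 16p11dup-THC against WT-THC (6.55%), 3 in 16p11dup-THC against 16p11dup-Veh (5.86%) and 5 in the interaction (5.79%). Some of these calls were of genes counted in few of the 18 libraries: Plch1 in 1, Lpar2 in 4, Alox12 in 5 and Ptgds in 6. Others, such as Ppard, Ptges3 and Abhd16a, were of genes counted in all 18.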

How the data were processed

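Microglia were sorted from the medial prefrontal cortex and sequenced, and 18 libraries of 4 groups were deposited. The study's methods state that 4 sample outliers had been excluded by how their expression correlated with that of the other samples. The spread between libraries given here is therefore the spread after that exclusion. The labels and the study's methods name the low-input Nugen Ovation kit for the libraries, whereas its results text names the Smart-seq2 protocol. Per the methods, reads were aligned with STAR to GRCm38 and counted with RSEM 1.3.0 without strand. The deposited values are log2 CPM as voom writes it, which adds 0.5 counts and uses scaled library sizes (factors 0.735 to 1.305). A library's minimum stands for a count of 0, and the counts were recovered from it. Of the non-zero recovered counts 94.6% were whole to within 0.02, and those of the 8 counted genes always were. Counts of sequenced and mapped reads were deposited too. The mapped fraction deposited with them is their ratio, and the 5 surrogate variables are scores deposited by the authors.

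All 18 libraries entered 1 model in limma 3.58.1, with terms for the 4 groups and for the mapped percentage and with voom weights from the recovered counts. Tests were two-sided, adjusted by Benjamini-Hochberg over 22428 genes, with an FDR threshold of 0.10; an unadjusted p under 0.05 was a second, looser rule. Exact permutation tests enumerated all arrangements of 2 groups' libraries. The genes and lists were chosen with earlier results of these data known. All 10 genes are named, with, from each list, the 2 most abundant per kilobase and up to 4 genes per comparison with the smallest limma p under 0.05. For genes counted in all libraries, the 3 with the highest Pearson correlation are given, except 1 that is not reported here. Levels between genes are CPM per kilobase of GENCODE M21 exons on GRCm38. Promoters are from RefSeq (GRCm38.p6), which matched 8 of the 10 genes. Other fits were made with DESeq2 1.42.0 and edgeR 4.0.16 on the counts after rounding, with changed offsets, filters, scalings, weights or covariates, and without each library. Levels without a gene's highest library, and edgeR and DESeq2 on the lists, were added after seeing the data. Replicate numbers follow the order of deposit and only name libraries. The tests were tested on simulated counts, where only genes counted in all 18 libraries with a mean log2 CPM of 5 or more were changed. Cnr2, Mgll, Naaa and Napepld have lower means, so the simulation does not cover genes at their level. Intervals have a confidence level of 95%, and precision is set by the spread between libraries. The software was Python 3.11.15 with pandas 2.3.3 and numpy 2.4.6, and R 4.3.3.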

Additional observations from a re-analysis of the deposited data

Results flagged for a closer look

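In 5 of 32 sets of 4 or 6 libraries of a group, 1 library stood apart from the rest of its group on the log2 CPM scale. The cut-off used is passed by chance in about 1 of 20 sets only where values are normally distributed. Log2 values of libraries at or near a count of 0 are not, so the 5 sets cannot be compared with that share. Mgll was low in 16p11dup-THC replicate 4, at -2.62 (0.109 CPM, 1 count), while the other 3 libraries had 49.7 to 61.7 CPM. Dagla was low in WT-THC replicate 3, at -0.45 (0.664 CPM, 5 counts), while the others had 53.5 to 104 CPM. Napepld was high in 16p11dup-Veh replicate 2, at 4.65 (25.04 CPM, 368 counts), while the others had no count. Naaa was low in 16p11dup-Veh replicate 4, at -0.75 (0.556 CPM, 7 counts), while the others had 5.24 to 6.14 CPM. Naaa was also low in WT-THC replicate 3, at -2.33 (0.133 CPM, 1 count), while the others had 18.2 to 34.2 CPM.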

How the results depend on the processing

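No paired analysis was possible because the labels give no replicate numbers and those used here only name libraries. By limma, no gene of the set passed the FDR of 0.10 with any library left out (lowest and highest count 0 in all comparisons), and with another tool 1 did: Naaa in 16p11dup-Veh against WT-Veh by DESeq2 (-4.63, adjusted p = 0.035), where edgeR gave an adjusted p of 0.87. The number of genes at an unadjusted p under 0.05 was 0 with the surrogate variables in 16p11dup-Veh against WT-Veh, in 16p11dup-THC against WT-Veh and in the F test, and 0 in 16p11dup-Veh against WT-Veh with only the groups compared in the fit. It was 1 by edgeR and 1 by DESeq2 in WT-THC against WT-Veh (Mgll), 2 by edgeR and 2 by DESeq2 in 16p11dup-Veh against WT-Veh and in the F test (Daglb and Naaa), and by DESeq2 alone 2 in 16p11dup-THC against WT-Veh (Daglb and Naaa), 1 in 16p11dup-THC against WT-THC (Cnr2) and 2 in the interaction (Dagla and Naaa). With each library left out it ranged from 1 to 2 in 16p11dup-THC against WT-Veh and from 0 to 1 in the other comparisons and the F test. The cause of these changes was not tested. Over all genes, DESeq2 called 454 and edgeR 15 at the FDR of 0.10 in 16p11dup-Veh against WT-Veh, against 0 by limma.

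The sign of the Daglb fold change in 16p11dup-THC against 16p11dup-Veh was -0.016 without voom weights, -0.22 by edgeR and -0.25 by DESeq2, and ranged from -0.007 to 0.638 with each library left out. The difference of its mean log2 CPM ranged from -0.34 to 0.36. The Cnr2 fold change in WT-THC against WT-Veh was 0.64 with the surrogate variables and ranged from -1.33 to 0.45 with each library left out (mean difference -1.424 to 0.071). In 16p11dup-Veh against WT-Veh it ranged from -0.53 to 1.46 (mean difference -0.80 to 1.55). The median log2 fold change of genes counted in all libraries was -0.15 by edgeR and by DESeq2 in WT-THC against WT-Veh, where it was 0.03 by limma. In the interaction it was 0.18 by edgeR and 0.16 by DESeq2 (0.02 by limma), and in 16p11dup-THC against WT-Veh -0.05 by DESeq2 (0.06 by limma). The precision of all values is limited by 4 to 6 libraries per group, and for Mgll, Napepld and Naaa by counts near 0 in some of them. Cnr2 also had only 3, 4 and 6 counts in 16p11dup-Veh replicate 3, WT-Veh replicate 4 and WT-THC replicate 3. Dagla had 5 counts in WT-THC replicate 3.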
